A study of Mus musculus with 2 samples.

Results

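The genes that add or remove acetyl and methyl groups on the lysines of histones were followed in Scl/tTA-BA mouse LSKs, before and after BCR/ABL (BA) was switched on. LSKs are lineage-negative bone marrow cells positive for Sca1 and c-Kit, the compartment that holds the hematopoietic stem cells and early progenitors. The genes were taken by their symbols, as every gene whose name starts with Kdm, Kmt, Setd, Nsd, Hdac, Sirt or Kat followed by a digit. Pseudogenes marked -ps, of which there were 3, were left out. This gave 60 of the 34745 genes, of which 59 were counted as enzyme genes and 1, Kdm6bos, is an antisense RNA lying inside Kdm6b. The 59 include Kdm4dl, which carries no -ps mark but is an unprocessed pseudogene in the GENCODE M21 annotation. It was kept among the demethylases. By class there were 19 demethylases, 15 methyltransferases, 18 deacetylases and 7 acetyltransferases. Measured values played no part in the rule.

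Both libraries came from Scl/tTA-BA mice on the C57BL/6 background, in which the stem cell leukemia (Scl) promoter drives the tetracycline transactivator in hematopoietic stem and progenitor cells and the transactivator drives BA unless doxycycline is present. The week-0 library is the control, from mice that carry the same transgenes with BA held off by doxycycline in the drinking water, and the week-3 library was made 3 weeks after BA induction. Each is 1 library from the mixed LSKs of 3 mice, so no replicate check exists for any difference given here, and no p-value is given. The age of the mice was not given in the sources used here. In mice with the same driver and a fluorescent reporter, the reporter was on in only part of the LSKs, so cells without BA may be part of the week-3 library.

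Histone tails carry acetyl groups, which are put on by acetyltransferases and taken off by the zinc-dependent deacetylases and the NAD-dependent sirtuins. Methyl groups at particular lysines are read as different signals. Methylated H3K4 marks promoters and enhancers, H3K36 the bodies of transcribed genes, and H3K9, H3K27 and H4K20 mostly silent or compact chromatin. In blood, the H3K4 methyltransferase Kmt2a (MLL) and the acetyltransferase Kat6a (MOZ) are known from leukemic fusion genes and from the maintenance of stem cells.

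The authors counted 6356164 reads on genes for week-0 and 3886695 for week-3, and gave each gene also as FPKM, the number of fragments scaled by the length of the exon model and by the total of the library. Changes are the log2 ratio of the week-3 to the week-0 FPKM, with no pseudocount, and levels are given in the order week-0, week-3. They were formed for genes with at least 20 reads in both libraries together. A gene was called downregulated at an FPKM ratio of 0.5 or less and upregulated at a ratio of 2 or more. The 95% intervals (exact Clopper-Pearson) cover counting error only. Of all genes, 12192 had at least 20 reads, with a median log2 change of 0.07. Among the enzymes, 57 of 59 did. The 2 others were Kdm4d, with 2 and 0 reads, and Kdm4dl, with 0 reads in both libraries. A count of 0 allows up to 3 reads, which was 0.472 reads per 1000000 at week-0 and 0.772 at week-3.

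The enzyme genes were mostly of moderate level. In both libraries 50 of the 59 had an FPKM of at least 1, while 11 reached an FPKM of 10 at week-0 and 9 at week-3. Their median FPKM was 4.02 at week-0 and 4.27 at week-3, against 4.40 and 4.21 for all genes with at least 20 reads. One gene stood far above the others at week-0. Kdm6b held 30.2% of the reads of the 59 enzymes in the control and 9.01% after induction, and among the 59 it went from rank 1 by FPKM to rank 2. Sirt3, the main mitochondrial deacetylase, went from rank 2 to rank 1, and Kmt2d, an H3K4 methyltransferase of enhancers, was at rank 3 in both libraries. FPKM divides by the exon model of each gene, whose length read from the deposited values was 2.22 kb for Sirt3, 7.27 kb for Kdm6b and 23.7 kb for Kmt2d. In reads per 1000000, Kmt2d stood at 815 at week-0 and Sirt3 at 119, the reverse of their order by FPKM. In GENCODE M21 the exons cover 5973 bases for Sirt3, 6954 for Kdm6b and 19931 for Kmt2d. Ranks and levels by FPKM across genes therefore depend on the exon model.

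**Figure D1:**
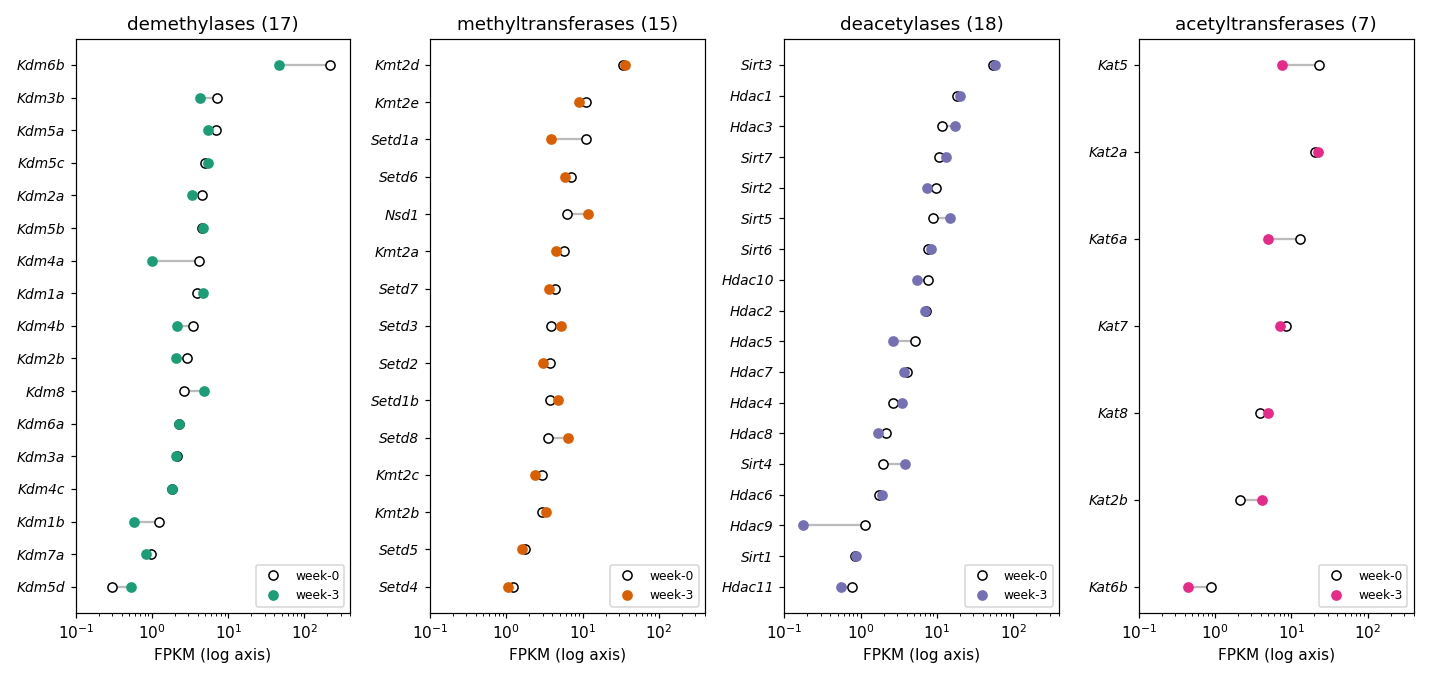
FPKM on a log axis of each enzyme gene with at least 20 reads, in 1 panel per class, with an open circle for the week-0 library and a filled one for week-3 joined by a line. Most pairs of circles nearly touch, while Kdm6b goes from 215 to 46.9 and Kdm4a from 4.18 to 1.01.

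At week-3, 8 of the 57 enzyme genes (14.0%) were downregulated and 0 were upregulated. Over all genes with at least 20 reads, 15.6% were downregulated and 10.6% upregulated, so the share of lower enzymes was near that of genes in general, and the upregulated side was empty. The 8 were the demethylases Kdm6b, Kdm4a and Kdm1b, the methyltransferase Setd1a, the deacetylase Hdac9 and the acetyltransferases Kat5, Kat6a and Kat6b. At a limit of 1.5-fold, 11 enzymes (19.3%) were lower against 24.6% of all genes, and 7 (12.3%) were higher against 23.7%. The counting interval lay below 0 for 21 enzymes (36.8%) against 28.5% of all genes, and above 0 for 12 (21.1%) against 34.0%. The median log2 change over the 57 was -0.13, below that of all genes, and 39 of them changed by less than 1.5-fold. Within a class, the downregulated enzymes were 3 of 17 demethylases, 1 of 15 methyltransferases, 1 of 18 deacetylases and 3 of 7 acetyltransferases. The class medians were -0.19, -0.22, 0.07 and -0.26 in that order, so the deacetylases sat at the median of all genes and the other classes below it. Scaled by TMM or by median-of-ratios, which set the library size from the bulk of the genes, the deacetylase median was -0.01 or -0.02. These scalings shift every gene alike, by -0.08 (TMM) or -0.09 (median-of-ratios), so the deacetylases stayed at the median of all genes.

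A test between single libraries rests on a spread that has to be assumed, and the study's own rule combined such a test from edgeR with a 2-fold limit. With that limit and edgeR's exact test (q-value under 0.05) at an assumed biological coefficient of variation of 0.1, the same 8 enzymes were called lower and 0 higher, where 10.1% and 8.11% of 15377 genes above 0 in both libraries were called. At an assumed coefficient of 0.4, 0 enzymes were called in either direction, against 0.566% of genes lower and 0.189% higher. Such a test compares these libraries and not the conditions.

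**Figure D2:**
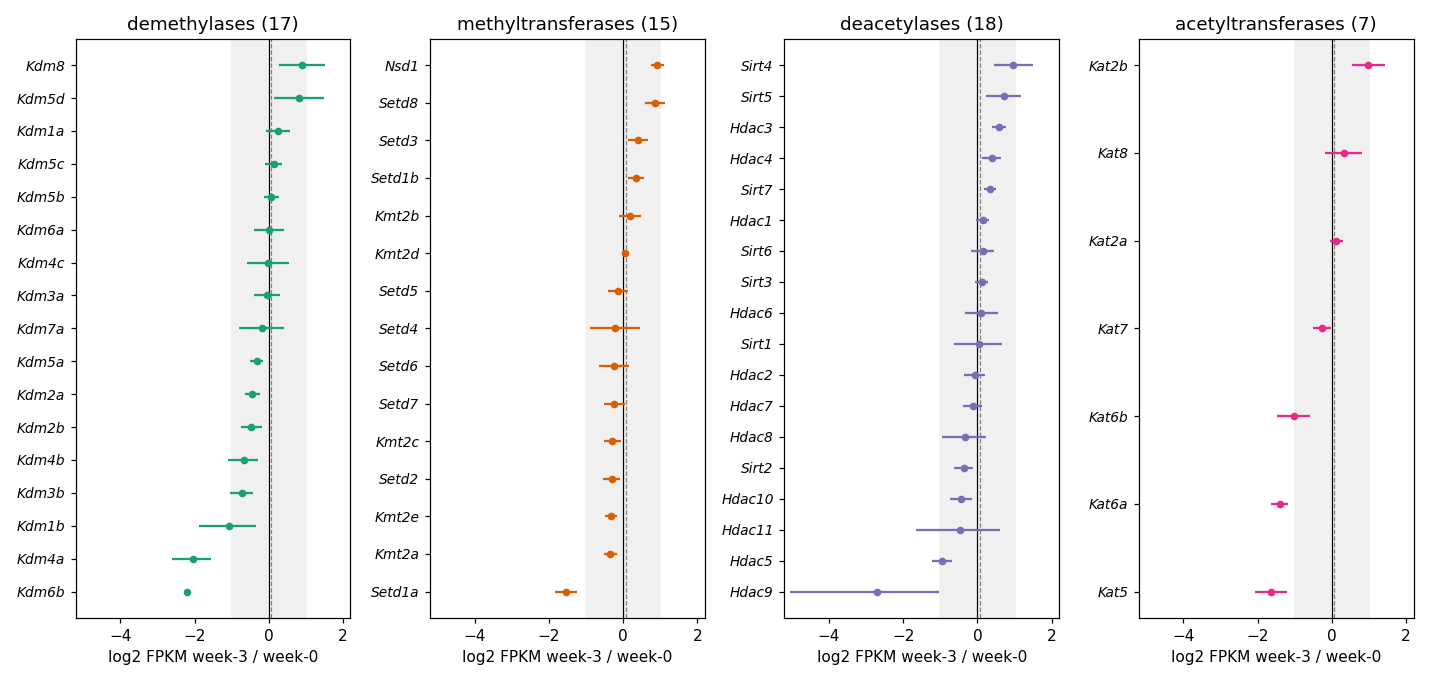
Log2 FPKM ratio of week-3 over week-0 for each enzyme gene with at least 20 reads, by class, with 95% counting intervals. The grey band spans the 2-fold limits and the dashed line is the median of all genes (0.07). Kdm6b, at -2.20, has the narrowest interval among the 8 genes below the band, and Hdac9, at -2.71 on 35 reads, the widest.

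The promoters of the downregulated enzymes were read to show what sequence lies upstream of genes that were lower together. Of the enzymes, 44 had an entry in the RefSeq promoter sequences used here (GRCm38.p6), 6 of the 8 downregulated genes among them. Kdm6b and Kat6a were those without one. The 250 bases before the start site were searched on both strands for 7 motifs, which were an AP-1 site (TGANTCA), a CRE (TGACGTCA), an E-box (CACGTG), a GC box (GGGCGG), an ETS site (CCGGAAGT), a CCAAT box (CCAAT) and a TATA element (TATAAA). Shown are Kdm4a and Hdac9, which hold an AP-1 match, Kat5, which holds the E-box, and Kdm1b, which holds several GC boxes, in each case the entry whose start site is the deposited start of the gene. Each run is 5′ to 3′ on the strand of its gene, ends at the base before the start site, and has the motif matches in capitals. No matches overlapped in these windows. Kdm4a is chr4:118180044-118180293, Hdac9 chr12:34528890-34529139 and Kat5 chr19:5610095-5610344, all on the minus strand, and Kdm1b is chr13:47043249-47043498 on the plus strand.
Kdm4a: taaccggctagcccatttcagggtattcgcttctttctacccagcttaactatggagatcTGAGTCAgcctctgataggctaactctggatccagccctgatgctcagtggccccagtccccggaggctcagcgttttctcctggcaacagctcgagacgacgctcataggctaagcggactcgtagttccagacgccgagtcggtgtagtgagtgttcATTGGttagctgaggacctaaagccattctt
Hdac9: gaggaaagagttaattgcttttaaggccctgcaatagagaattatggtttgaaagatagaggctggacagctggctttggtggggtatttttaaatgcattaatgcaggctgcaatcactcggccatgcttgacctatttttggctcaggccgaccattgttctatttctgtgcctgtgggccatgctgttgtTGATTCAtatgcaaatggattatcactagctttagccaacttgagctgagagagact
Kat5: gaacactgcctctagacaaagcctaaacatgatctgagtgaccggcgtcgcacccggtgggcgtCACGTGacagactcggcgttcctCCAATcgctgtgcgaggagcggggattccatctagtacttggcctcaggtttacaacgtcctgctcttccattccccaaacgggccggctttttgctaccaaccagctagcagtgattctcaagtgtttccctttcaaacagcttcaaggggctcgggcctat
Kdm1b: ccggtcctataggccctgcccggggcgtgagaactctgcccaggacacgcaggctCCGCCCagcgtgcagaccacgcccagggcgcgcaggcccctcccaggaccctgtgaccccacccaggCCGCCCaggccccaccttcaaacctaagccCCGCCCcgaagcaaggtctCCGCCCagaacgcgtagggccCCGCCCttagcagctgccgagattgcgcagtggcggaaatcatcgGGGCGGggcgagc

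In the Kdm4a window the AP-1 match TGAGTCA begins 190 bases before the start and a reversed CCAAT box 31 bases before it. The AP-1 match TGATTCA of Hdac9 begins 57 bases before the start. The E-box of Kat5 begins 186 bases before the start, and the Kdm1b window has 6 GC boxes. An AP-1 match was present for 2 of the 6 downregulated enzymes and for 6 of the 44 enzymes with an entry, while 7.82% of all 27025 genes with an entry held one. The E-box was present for 4 of 44 enzymes and 6.86% of all genes, and the CRE for 0 of 44 and 1.77%. GC boxes were found for 28 of 44 enzymes and 35.4% of all genes, CCAAT boxes for 21 of 44 and 37.5%, TATA elements for 3 of 44 and 14.3%, and the ETS site for 3 of 44 and 3.23%. Of the 6 downregulated enzymes, 3 held a GC box. A gene with several entries was counted if any of them held the motif. The GC boxes of Kat5, which is among these 3, lie in an entry with another start that is not shown. Hdac9 also has an entry with another start, at chr12:34917095, that is not shown. That entry holds a TATA element 29 bases before its start and no AP-1 match, so the AP-1 match of Hdac9 depends on the start site. A match describes the letters of the window and not a bound site.

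Kdm6b (JMJD3), on the minus strand at chr11:69398508-69413675 (GRCm38), removes methyl groups from H3K27 and is known as a gene switched on quickly by inflammatory stimuli. It went from 9927 reads (FPKM 215) to 1325 reads (FPKM 46.9). Its log2 change was -2.20 (95% interval -2.28 to -2.11), a level 4.58-fold lower at week-3, and its rank among all genes went from 225 to 1103. Its paralogue Kdm6a (UTX), an X-linked enzyme of the same substrate, went from 133 reads (FPKM 2.25) to 82 reads (FPKM 2.27), a log2 change of 0.01 that was below 0 with TMM or median-of-ratios scaling. The ratio of Kdm6b to Kdm6a within a library does not depend on how libraries are scaled, and it went from 95.5 to 20.7. The week-3 ratio was thus 0.216 of the week-0 ratio (95% interval 0.162 to 0.291). Kdm6b made up most of the demethylase signal. The summed FPKM of the class went from 269 to 93.0 with it and from 53.7 to 46.1 without it. The antisense Kdm6bos had 12 and 5 reads. In GENCODE M21, 4.11% of the exon bases of Kdm6b are shared with Kdm6bos, and the library kit does not mark strand.

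Kdm6b is itself an early response gene in many cells, and the immediate early genes were measured beside it. All 21 genes of a list of such genes (Fos, Jun, Egr, Nr4a, Klf and others) had a counting interval below 0, with a median log2 change of -1.66, and 19 of them were past the 2-fold limit. They took 4.68% and 1.30% of all reads. Of all genes with at least 20 reads, 28.5% had an interval below 0 and 15.6% were downregulated. Egr1, a transcription factor induced by growth factors and by stress, had 41528 and 2859 reads, and Egr3 had 63 and 0. Immediate early genes are known to respond to tissue handling and cell dissociation as well as to signals in the animal. Their part in the changes of the enzymes was not tested.

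The other members of the Kdm families were mostly within 2-fold, and the downregulated ones were among the H3K9 and H3K4 demethylases. Kdm4a (JMJD2A), on the minus strand at chr4:118136957-118180043, removes methyl groups from H3K9 and H3K36, and is the gene shown above with an AP-1 match 190 bases before the start. It went from 244 reads (FPKM 4.18) to 36 reads (FPKM 1.01), a log2 change of -2.05 (-2.60 to -1.54). Its paralogue Kdm4c had 74 and 45 reads and FPKM of 1.85 and 1.84, so that Kdm4a went from 2.26 times Kdm4c to 0.548 times it, a ratio of ratios of 0.243 (0.141 to 0.417). Kdm4b lay between them, with 186 and 71 reads and a log2 change of -0.68. All 6 measured H3K9 demethylases had log2 changes below 0, as did 5687 of the 12192 genes, with a median of -0.43. Kdm4c, at -0.01, was almost level. Besides the Kdm4 genes these were Kdm3b at -0.73, Kdm3a at -0.04 and Kdm7a at -0.19. Only Kdm4a of these 6 was past the 2-fold limit, and 3 of the 6 intervals held 0.

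Kdm1b (LSD2), at chr13:47043499-47084613 on the plus strand, is a flavin-dependent H3K4 demethylase. It went from 69 reads (FPKM 1.23) to 20 reads (FPKM 0.582), a log2 change of -1.08 (-1.87 to -0.34). The related Kdm1a (LSD1), which acts with the CoREST corepressor in blood cells, had 195 and 141 reads and FPKM of 3.92 and 4.64. Kdm1b therefore went from 0.313 to 0.125 of Kdm1a, a ratio of ratios of 0.401 (0.221 to 0.705). In GENCODE M21, 9.19% of the exon bases of Kdm1b are shared with Dek on the other strand, which had 1448 and 1161 reads.

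The Kdm5 enzymes, which remove tri-methyl groups from H3K4, had a median log2 change of 0.11 as a family, close to that of all genes. Kdm5a had 789 and 384 reads and FPKM of 6.85 and 5.45. Kdm5b had 553 and 356 reads and FPKM of 4.48 and 4.72, a log2 change of 0.07 that was below 0 when scaled by TMM or median-of-ratios, and Kdm5c had 387 and 260 reads and FPKM of 4.95 and 5.44. The Y-linked Kdm5d had 38 and 41 reads, FPKM of 0.301 and 0.532, and a log2 change of 0.82, with an interval above 0. Reads of Y-linked genes were present in both libraries, with 343 and 167 reads of Ddx3y and 248 and 148 of Eif2s3y, while Xist had 5 and 4 reads. The H3K36 demethylases Kdm2a and Kdm2b moved alike, by -0.45 and -0.47, and their ratio was 0.622 at week-0 and 0.613 at week-3. On the higher side, Kdm8 had 44 and 50 reads and a log2 change of 0.89 (0.28 to 1.51), the highest of the demethylases.

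Among the methyltransferases, the downregulated gene was Setd1a, the catalytic subunit of a SET1 complex that places H3K4 tri-methylation at promoters. Setd1a, at chr7:127776670-127800122 on the plus strand, went from 567 reads (FPKM 11.1) to 119 reads (FPKM 3.82). Its log2 change was -1.54 (-1.84 to -1.26), and its rank among the 59 enzymes went from 10 to 32. Its paralogue Setd1b, the catalytic subunit of the other SET1 complex, had 390 and 303 reads and FPKM of 3.72 and 4.73, a log2 change of 0.35. The order of the pair turned over. Setd1a was 2.99 times Setd1b at week-0 and 0.807 times it at week-3, with a ratio of ratios of 0.270 (0.209 to 0.349). Of the exon bases of Setd1a, 52.3% are shared with 9430064I24Rik and Gm49388 in GENCODE M21. Neither gene was analysed here, and how reads over such bases were assigned was not given in the sources used here.

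The Kmt2 family stayed well inside 1.5-fold. Its members write H3K4 methylation at genes of development (Kmt2a and Kmt2b) and at enhancers (Kmt2c and Kmt2d), while Kmt2e was not grouped with the H3K4 methyltransferases here. Kmt2d went from 5182 reads (FPKM 34.3) to 3275 reads (FPKM 35.5), a log2 change of 0.05 (-0.02 to 0.11) that had the opposite sign with other scalings. Kmt2a had 739 and 357 reads and a log2 change of -0.34. Kmt2c had 477 and 238 reads and a log2 change of -0.29, and Kmt2e 898 and 439 reads and a change of -0.32. These 3 had intervals below 0. Kmt2b had 230 and 160 reads and a change of 0.19 with an interval that held 0. The H3K4 methyltransferases together, with Setd1a and Setd1b and without Kmt2e, had a median of -0.12, against 0.11 for the H3K4 demethylases.

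Nsd1, an H3K36 methyltransferase that is a fusion partner in myeloid leukemia, had the largest positive change of the 15 methyltransferases. It went from 511 reads (FPKM 6.29) to 593 reads (FPKM 11.9), a log2 change of 0.92 (0.75 to 1.10), just inside the 2-fold limit. Setd2, which places H3K36 tri-methylation, had 477 and 237 reads and a log2 change of -0.30. Nsd1 was 1.69 times Setd2 at week-0 and 3.95 times it at week-3, a ratio of ratios of 2.34 (1.91 to 2.85). Setd8, which monomethylates H4K20 and is tied to cell division, had 222 and 245 reads, FPKM of 3.54 and 6.39 and a log2 change of 0.85 (0.58 to 1.12). The SET enzymes that act mainly on other substrates (Setd3 to Setd7) had a median of -0.22, and only Setd3 among these 5 had an interval that left out 0, at 0.41.

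**Figure D3:**
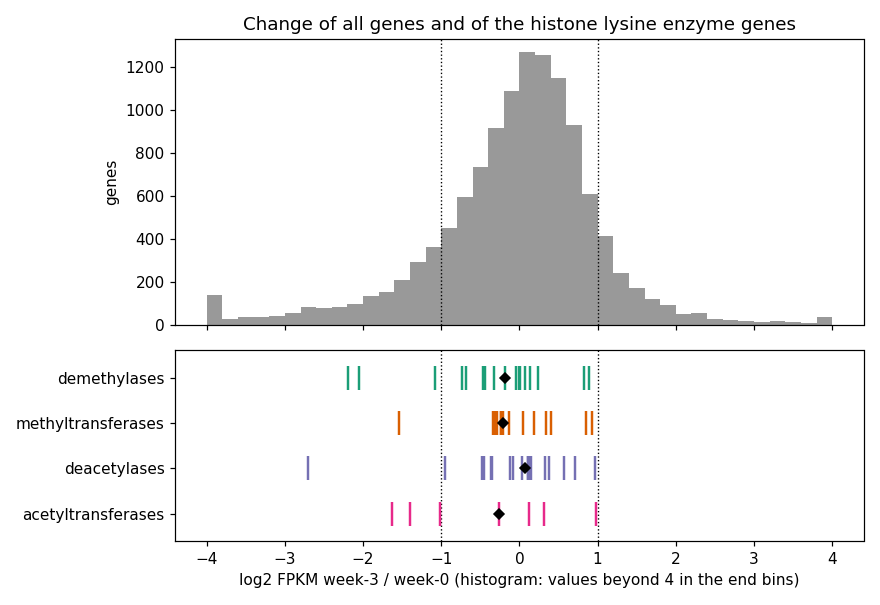
Distribution of log2 FPKM ratios (week-3 over week-0) of the 12192 genes with at least 20 reads, with the enzyme genes of each class below it as ticks, the class medians as diamonds and the 2-fold limits dotted. Values beyond the ends are drawn in the end bins. The enzymes reach past the lower limit in 8 genes and past the upper limit in 0.

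The zinc-dependent deacetylases were read by structural class, and the ranges of the classes overlapped. The class I enzymes Hdac1, Hdac2, Hdac3 and Hdac8, the catalytic cores of the nuclear corepressor complexes, ran from -0.35 (Hdac8) to 0.57 (Hdac3), with a median log2 change of 0.03 (-0.05 under TMM, -0.06 under median-of-ratios). Hdac1 had 683 and 461 reads and FPKM of 18.3 and 20.2, the highest of the zinc-dependent enzymes. Hdac3 had 510 and 464 reads, FPKM of 11.6 and 17.2, and a log2 change of 0.57 (0.39 to 0.76). The class IIa enzymes, which shuttle between nucleus and cytoplasm and bind Mef2 transcription factors, had a median of -0.54, which was -0.13 over the 3 with at least 50 reads, without Hdac9.

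Hdac9 is a class IIa enzyme at chr12:34371503-34528889 on the minus strand, with an AP-1 match 57 bases before its deposited start. It went from 32 reads (FPKM 1.14) to 3 reads (FPKM 0.175). Its log2 change was -2.71 with a wide interval of -5.06 to -1.03. Hdac5 had 520 and 164 reads, FPKM of 5.09 and 2.63 and a log2 change of -0.96 (-1.22 to -0.70), and was the enzyme just inside the lower limit. Hdac4 went the other way, with 302 and 240 reads and a change of 0.38, and Hdac7 had 334 and 187 reads and a change of -0.13. Hdac5 was 1.90 times Hdac4 at week-0 and 0.753 times it at week-3, a ratio of ratios of 0.397 (0.309 to 0.510). The class IIb and IV enzymes had a median of -0.45, from Hdac6 at 0.10 (108 and 71 reads), Hdac10 at -0.45 and Hdac11 at -0.47, and of -0.17 without Hdac11, which had under 50 reads.

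Of the sirtuins, 6 of 7 had log2 changes above 0, where 6505 of the 12192 genes did, and none was past the 2-fold limit. Their median was 0.14, against 0.07 for all genes, and Sirt1 had the opposite sign with TMM or median-of-ratios scaling. In the nucleus, Sirt1 had 56 and 35 reads and a log2 change of 0.03, Sirt6 had 205 and 138 and a change of 0.14, and Sirt7 had 776 and 597 and a change of 0.33. Only the interval of Sirt7, an enzyme of the nucleolus, left out 0 among these. Of the mitochondrial sirtuins, Sirt3 had 756 and 499 reads, FPKM of 53.6 and 57.8 and a log2 change of 0.11. Sirt4 had 58 and 69 reads and a change of 0.96 (0.44 to 1.49), and Sirt5, which removes succinyl and malonyl groups, had 78 reads in each library and a change of 0.71 (0.24 to 1.18). The mostly cytosolic Sirt2 was the sirtuin below 0, with 382 and 181 reads and a change of -0.37. In GENCODE M21, 12.7% of the exon bases of Sirt3 are shared with Psmd13 and Ric8a.

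Of the 7 acetyltransferases, 3 were downregulated, the largest share of any class but from few genes. Over all genes with at least 20 reads, 15.6% were downregulated. All 3 were in the MYST family, which acetylates H3 and H4. Kat5 (TIP60), at chr19:5603017-5610094 on the minus strand, the catalytic subunit of the NuA4 complex and the gene with the E-box, went from 293 reads (FPKM 23.0) to 58 reads (FPKM 7.43). Its log2 change was -1.63 (-2.06 to -1.22), and its rank among the 59 enzymes went from 4 to 13. Kat6a (MOZ), at chr8:22859535-22943259 on the plus strand, went from 787 reads (FPKM 13.2) to 182 reads (FPKM 4.98), a log2 change of -1.40 (-1.64 to -1.17). Its rank went from 7 to 22. Kat6b (MORF), at chr14:21481434-21672478 on the plus strand, went from 186 reads (FPKM 0.893) to 56 reads (FPKM 0.440), a log2 change of -1.02 (-1.48 to -0.58), the one nearest to the limit. Kat6a and Kat6b moved together. The level of Kat6b was 0.0678 and then 0.0882 of that of Kat6a, and the ratio of ratios, 1.30, had an interval that held 1 (0.909 to 1.85). The exon model behind the FPKM of Kat6b was 32.8 kb long, against 9.40 kb for Kat6a. In GENCODE M21 the exons of Kat6b cover 16826 bases and those of Kat6a 9180.

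The other MYST enzymes were within the limits. Kat7 (HBO1) had 407 and 208 reads and a log2 change of -0.26, and Kat8 (MOF), the H4K16 acetyltransferase, had 84 and 64 reads and a change of 0.32 with an interval that held 0. Kat5 went from 5.85 to 1.52 times Kat8, a ratio of ratios of 0.260 (0.165 to 0.409). The median over the 5 MYST genes was -1.02. Both GCN5-type enzymes of the SAGA and ATAC complexes were above 0. Kat2a (GCN5) had 597 and 398 reads, FPKM of 20.6 and 22.4 and a change of 0.12, and Kat2b (PCAF) had 77 and 93 reads, FPKM of 2.10 and 4.15 and a change of 0.98 (0.53 to 1.44), the enzyme nearest to the upper limit. In GENCODE M21, 12.1% of the exon bases of Kat5 are shared with Rnaseh2c on the other strand, which had 657 and 600 reads, a log2 change of 0.58.

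Ratios were formed for 21 pairs of related enzymes in all. The interval of the ratio of ratios left out 1 for 15 pairs and held it for 6. Among the 6 were Kdm2b over Kdm2a at 0.986 (0.772 to 1.26) and Hdac2 over Hdac1 at 0.859 (0.676 to 1.09). No such share was formed over pairs of other genes, so the 15 cannot be read as particular to the enzymes. Of all single genes with at least 20 reads, 34.0% had a counting interval above 0 and 28.5% below 0.

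**Figure D4:**
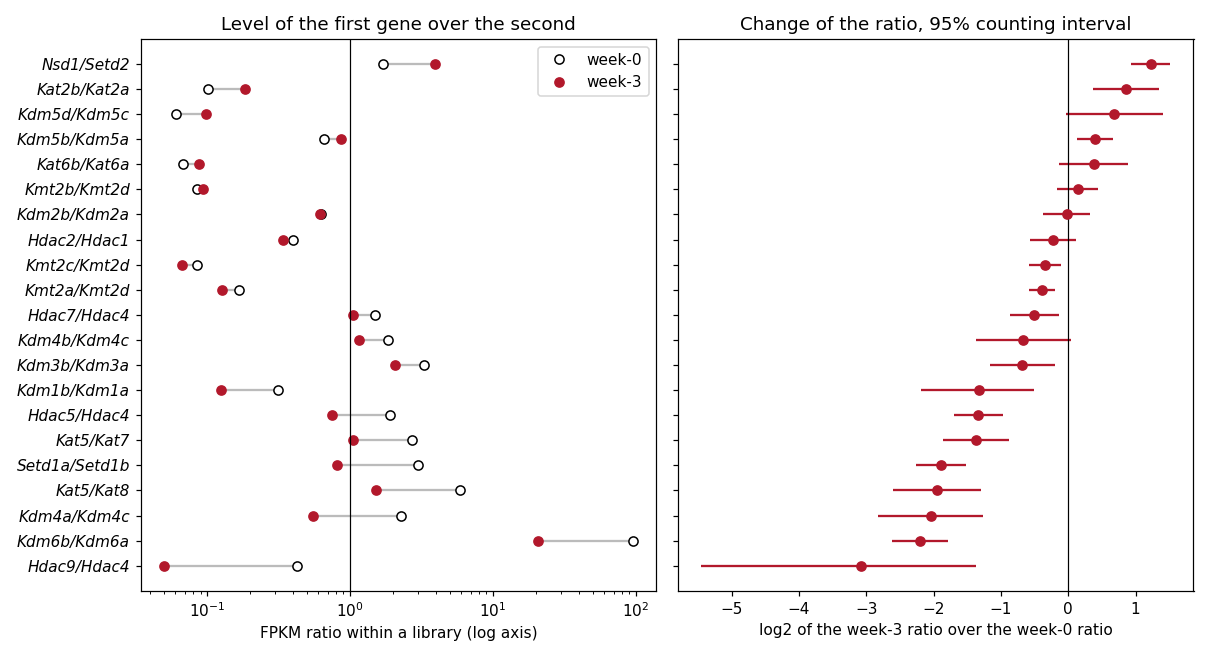
Left, FPKM ratio of the first to the second gene of each pair within the week-0 (open) and week-3 (filled) library on a log axis, and right, the log2 of the week-3 ratio over the week-0 ratio with 95% counting intervals. On the right, pairs left of 0, such as Kdm6b over Kdm6a at -2.21 and Setd1a over Setd1b at -1.89, had less of their first gene relative to the second at week-3, and Nsd1 over Setd2 lies right of 0 at 1.22.

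Enzymes of the same or related kinds that carry other names were read beside these. Of all genes with at least 20 reads, 15.6% were downregulated and 10.6% upregulated. Among 29 other lysine methyltransferases with at least 20 reads, the median log2 change was 0.25, with 3 downregulated and 2 upregulated. Dot1l, the H3K79 methyltransferase, had 1260 and 295 reads and a change of -1.39 (-1.57 to -1.20). Mecom and Prdm1, SET-related transcription factors, had 154 and 44 reads and 39 and 1 reads. Smyd4 had 15 and 59 reads and a change of 2.69, and Setmar had 4 and 21 reads and a change of 3.10 (1.53 to 5.10). Ezh2, the H3K27 methyltransferase that works against Kdm6b, had 305 and 320 reads and a change of 0.78 (0.55 to 1.01). Ezh1 had 108 and 82 reads and a change of 0.31. Of the 29, 14 had a counting interval above 0, Ezh2 among them, and 7 below 0, against 34.0% and 28.5% of all genes.

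Of 6 other demethylases or related enzymes with at least 20 reads, 2 were downregulated. Jmjd1c, a relative of the Kdm3 enzymes, went from 2233 reads (FPKM 15.7) to 363 reads (FPKM 4.18), a change of -1.91 (-2.08 to -1.75). The related Jmjd6 had 1215 and 281 reads and a change of -1.40. Of 12 other acetyltransferases, Ncoa2 was downregulated, with 747 and 129 reads and a change of -1.82, and Clock, Csrp2bp and Gtf3c4 were upregulated at 1.38, 1.36 and 1.46. The broad coactivators Crebbp and Ep300 had changes of -0.52 and -0.59. Jmjd1c had the lowest log2 change among the genes of this paragraph.

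Subunits and readers that act with the enzymes were mostly within 2-fold. Of all genes with at least 20 reads, 15.6% were downregulated and 10.6% upregulated. Of 12 subunits of the COMPASS and MLL complexes, only Hcfc1 was past the limit, at -1.10, and the median was 0.24. Of 27 deacetylase complex subunits and partners, 5 were downregulated and 1 upregulated, with a median of 0.01. Among the lower ones were Gps2 at -1.99, of a corepressor complex that holds Hdac3, Mta3 of the NuRD complex at -1.49, and Mef2d at -1.65 and Mef2c at -1.41, partners of the class IIa enzymes. Mbd2, a reader of methylated DNA, was the higher one at 1.07. Of 26 acetyltransferase complex subunits, Brpf3, a partner of the Kat6 and Kat7 enzymes, was at -1.21, Epc2, a NuA4 subunit, was at -1.12 and Msl1, a partner of Kat8, was at 1.07. Their median was -0.24. Of 6 bromodomain readers, Brd7 was past the limit, at 1.10.

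**Figure D5:**
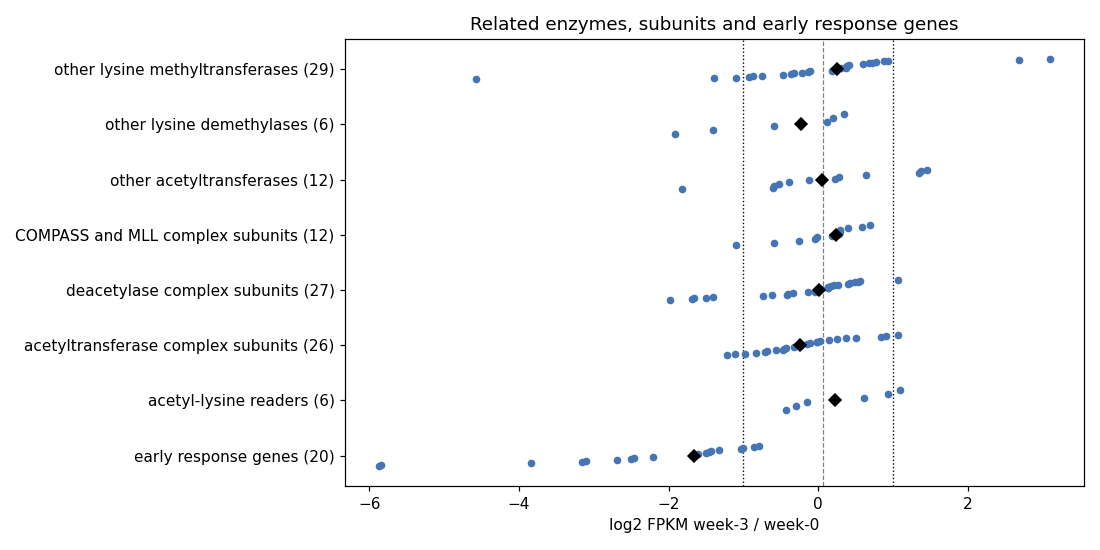
Log2 FPKM ratios of related enzymes, complex subunits, acetyl-lysine readers and early response genes with at least 20 reads, 1 point per gene, with the list median as a diamond, the 2-fold limits dotted and the median of all genes dashed. The 20 early response genes drawn, Egr3 with 0 reads at week-3 being left out, all lie left of 0, whereas the enzyme and subunit lists spread to both sides.

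The sorted cells were checked against markers. The LSK genes Kit and Ly6a (which encodes Sca1) were present in both libraries, with 1391 and 580 reads and 434 and 199 reads. Of 10 LSK genes, 4 were downregulated and 1 upregulated, with a median log2 change of -0.69, and none was at 0 reads. Over all genes with at least 20 reads, 15.6% were downregulated and 10.6% upregulated. Flt3, a receptor of early progenitors, was at -2.02. Markers of other cells moved too. Mast cell and basophil genes were past 2-fold higher in 8 of 10 and lower in 1 (Prss34), and their summed FPKM was 310 at week-0 and 3301 at week-3, with Tpsb2 at 0 reads at week-0. Neutrophil and monocyte genes were higher in 10 of 12, from 2252 to 11370. Erythroid genes were lower in 8 of 9 and higher in 1 (Tfrc, log2 change 1.48), with summed FPKM of 1101 and 96.3. B and plasma cell genes were lower in 5 of the 8 with at least 20 reads (548 and 90.0). T and NK cell genes, of which 4 of 10 had at least 20 reads, summed to 304 and 502, a sum carried by Nkg7 (FPKM 279 and 422) and Gzmb (8.43 and 70.9), while Lck and Trbc2 had log2 changes of -0.94 and -1.03 and Cd3e and Cd8a were at 0 at week-3. The part of these markers in the enzyme changes was not tested, and in RNA of mixed cells, fewer cells of a type and less RNA per cell cannot be told apart.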

How the data were processed

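RNA of LSKs was profiled in 1 library per time point, each from 3 mice. The authors amplified cDNA (SMARTer Ultra Low Input kit), sequenced it on an Illumina HiSeq as paired ends of 100 bases, trimmed reads to no less than 25 bases, and mapped them with TopHat 2.0.9 to GRCm38 (mm10), allowing 2 mismatches. The authors deposited, per gene, counts (whole reads, not normalized) and FPKM, which they had scaled by exon length and total reads on genes. The counter and annotation are not given in the sources used here. Other assays of the study were not analysed here.

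Genes were joined by Ensembl identifier, and coordinates are the deposited ones. All 60 symbols matched GENCODE M21, 49 with the same coordinates, and exon sharing was taken from it. Ratios of FPKM were formed for genes with at least 20 reads. Intervals of ratios of ratios are exact conditional 95% intervals of the odds ratio of the reads. Depth, given above, limits genes near 3 reads. Intervals and floors hold counting error alone and leave out the spread between mice. They treat each read as a separate molecule, which amplified reads are not, so they may be too narrow even for counting error. The alternatives were scaling by TMM (edgeR 4.0.16) or median-of-ratios (DESeq2 1.42.0, R 4.3.3), other limits and pseudocounts, and edgeR's exact test with assumed spreads. The scripts were tested on simulated data and ran in Python 3.11.15 with scipy 1.17.1, pandas 2.3.3, numpy 2.4.6 and matplotlib 3.10.9.

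Named with values are enzymes past 2-fold, the 3 of highest mean FPKM and the one nearest to the median of all genes per class, the Kdm5, Kdm6, Kmt2, class IIa, sirtuin and Kat6 members, and those under 20 reads. Others (such as Kat2b, Kdm8, Setd8 and the partners in ratios) were named after their values were seen. The genes, lists and pairs were chosen with earlier results of these data known. Results for some genes of the lists are not reported here.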

Additional observations from a re-analysis of the deposited data

How the results depend on the processing

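With 1 library per time point, no library could be left out. No paired analysis was possible because each time point has a single library. The count of downregulated enzymes was 8, and 9 with TMM or median-of-ratios scaling, where Hdac5 passed the limit at -1.04. It was 9 with no read minimum (Kdm4d added), 7 with at least 50 reads and 6 without enzymes sharing over 10% of exon bases, an alternative chosen after seeing the data that leaves out Setd1a and Kat5. It was 0 in edgeR's exact test at a coefficient of variation of 0.4. The upregulated count was 0, and 7 at 1.5-fold. These scalings moved all genes by -0.08 (TMM) and -0.09 (median-of-ratios) on the log2 scale. With median-of-ratios the methyltransferase median was -0.31. With log2(FPKM + 0.1) over enzymes that reached an FPKM of 1 in a library, the median was -0.07 for acetyltransferases and -0.32 for demethylases, and with log2(FPKM + 1) it was -0.09 for demethylases and -0.11 for methyltransferases. With at least 50 reads, it was -0.13 for class IIa and -0.17 for class IIb and IV deacetylases, as Hdac9 and Hdac11 are left out. With TMM and median-of-ratios in turn, the medians were -0.54 and -0.54 for H3K36 demethylases, 0.77 and 0.76 for Setd8 (H4K20), -0.53 and -0.54 for class IIb and IV deacetylases, and -0.30 and -0.31 for SET enzymes of other substrates. Of 102 values of single enzymes under alternatives, 96 lay inside the counting interval of the main value. Most of the 102 are the constant shifts of the scalings, so for those the outcome depends on the width of the interval, and so on depth. With TMM and median-of-ratios in turn, signs changed for Kmt2d (-0.03 and -0.04), Kdm5b (-0.01 and -0.02), Kdm6a (-0.07 and -0.08), Sirt1 (-0.05 and -0.06), the deacetylase median (-0.01 and -0.02) and the class I median (-0.05 and -0.06). With log2(FPKM + 1), Hdac9 was at -0.86, Kat6b at -0.39 and Kdm4a at -1.37, and with median-of-ratios Kdm6b was at -2.29. Depth limits most Hdac9, Hdac11 and Kdm1b, which have the widest counting intervals, and the spread between mice is unknown.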
